A study of Homo sapiens with 12 samples.

Results

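S13 and S23 are the labels of the 2 series of SOX21-/- libraries in a study of SOX21, a transcription factor gene of neural progenitors, during neural differentiation of H9, a long-established line of human embryonic stem cells. The members are all libraries that carry either label, chosen by label alone: 6 of the 12 libraries, 1 per label at each of days 0, 4 and 8. The other 6 libraries are wild type, labelled WT1 and WT2, with 1 per label at each of the same days. Day 0 cells are labelled as embryonic stem cells, and cells of days 4 and 8 as neural progenitors derived from them. All groups share the H9 background. The sources used here do not say whether S13 and S23 are separate clones, how the allele was made, or whether a label repeated over days marks the same culture, so the p-values speak only of the spread among these libraries, which may be technical. The comparison asks how much the SOX21-/- state varied between its 2 labels, set beside how much wild type varied between WT1 and WT2. Differences are given as S23 minus S13 on log2(TPM + 1), where TPM, the unit of the table, states how large a fraction of all transcripts a gene makes up and 1 is the pseudocount. On this scale the changes of low genes are understated.

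Neural progenitors made from embryonic stem cells without added patterning signals take on a forebrain character. WNT proteins, secreted signals that act through beta-catenin and TCF/LEF factors on DNA, turn the forebrain towards its caudal parts, and WNT8B is the WNT ligand of the cortical hem and caudal forebrain. FGF8 is made at the rostral rim of the forebrain and at the boundary of midbrain and hindbrain, and BMP proteins are signals of the dorsal midline. Whether the timing or strength of these signals differed between the labels was not tested.

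SOX21 mRNA did not separate the genotypes. At day 4 its level was 162 TPM in S13 and 143 TPM in S23, beside 156 TPM in WT1 and 166 TPM in WT2. At day 8 it was 253 TPM in S13 and 69.9 TPM in S23, beside 129 TPM in WT1 and 100 TPM in WT2. S13 was thus above both wild-type libraries and S23 below both at day 8, and this gene's level does not check the label SOX21-/-. Its neighbour SOX21-AS1, an antisense RNA whose reads may not be told apart from those of SOX21 because the use of strand is not given, was at 165 TPM in S13 and 108 TPM in S23 at day 8, above the 57.2 TPM and 52.1 TPM of wild type. The labels of the days were followed by some of the other markers but not by all. POU5F1, the core pluripotency factor, lay between 1507 and 1744 TPM in all 4 libraries of day 0 and between 0.283 and 1.41 TPM at day 8. PAX6, of neural progenitors, lay between 93.3 and 148 TPM at day 4 and between 95.1 and 204 TPM at day 8. LIN28A, taken as a pluripotency marker, instead rose from between 148 and 176 TPM at day 0 to between 608 and 701 TPM at day 8. DPPA4, another such marker, was still between 97.5 and 138 TPM at day 8. HES5, taken as a progenitor marker, was only between 0.574 and 1.51 TPM at day 4. Nuclear protein-coding genes made up between 55.9% and 56.4% of each library's TPM at day 0 and between 83.5% and 87.1% afterwards, with no order by label. The depth of the libraries is unknown, since TPM keeps no read numbers.

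The promoters of WNT8B, DKK1 and SP5 are shown because the genes after them, a WNT ligand and a pair of WNT targets, had the largest differences of the WNT lists between the labels at day 4. Each is the stretch of 250 bases before the RefSeq start on GRCh38.p14, on the plus strand: chr10:100462759-100463008 for WNT8B, chr10:52314031-52314280 for DKK1 and chr2:170715087-170715336 for SP5. Capitals mark the TCF/LEF core, searched as CTTTGA on both strands, so also as TCAAAG, and the SOX core, searched as ACAAT on both strands, so also as ATTGT. These letters do not overlap each other.
WNT8B: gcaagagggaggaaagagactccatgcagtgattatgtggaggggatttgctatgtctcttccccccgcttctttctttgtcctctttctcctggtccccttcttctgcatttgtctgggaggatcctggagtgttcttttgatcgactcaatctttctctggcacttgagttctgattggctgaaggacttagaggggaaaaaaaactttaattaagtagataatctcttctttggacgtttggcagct
DKK1: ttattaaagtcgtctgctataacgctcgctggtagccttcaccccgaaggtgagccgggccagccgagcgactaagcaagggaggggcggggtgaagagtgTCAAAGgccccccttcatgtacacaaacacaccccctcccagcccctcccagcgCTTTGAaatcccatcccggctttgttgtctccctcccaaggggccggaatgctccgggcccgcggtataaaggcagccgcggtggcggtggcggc
SP5: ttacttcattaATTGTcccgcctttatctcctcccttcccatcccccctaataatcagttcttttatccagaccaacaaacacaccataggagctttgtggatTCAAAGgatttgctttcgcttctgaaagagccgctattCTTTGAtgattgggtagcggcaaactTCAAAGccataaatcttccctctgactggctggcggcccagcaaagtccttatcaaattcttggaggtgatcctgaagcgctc
The DKK1 window holds 2 TCF/LEF cores and the SP5 window 3, with 1 SOX core, while the WNT8B window holds neither core as searched. Only these letters were searched, so a window without them may hold other forms of either motif. Of 35116 promoter windows of this length, 11.2% hold the TCF/LEF core and 24.6% the SOX core. Of the 17 members of a list of WNT targets and inhibitors with a promoter in the RefSeq table, 4 hold the TCF/LEF core: DKK1, SP5, CDX2 and TBXT. The SOX core is held by 5 of the 17. These are counts of genes, for which a match in any window of the gene was enough, so the shares of single windows above are not a like measure. The windows of WNT8B, OTX1, EMX2 and SOX21 hold neither core. A match is a description of letters, not a bound site. The genes were picked for this display after their values were seen.

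The difference between the labels was somewhat larger than that between the wild-type labels, most of all at day 4. Over 14437 nuclear protein-coding genes, the median absolute difference between S23 and S13 was 0.185 at day 0, 0.202 at day 4 and 0.192 at day 8. Between WT2 and WT1 it was 0.163, 0.139 and 0.154 at the same days. Over all 24248 genes tested, the ratio of the medians was 1.094, 1.318 and 1.165.

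Genes that differed by at least 2-fold, with no test, give the background for every list. At day 0 they were 2.2% of coding genes between S23 and S13, 0.859% higher and 1.34% lower in S23, and 2.25% between the wild-type labels. With median-of-ratios scaling the split at day 0 moved from 124 higher and 193 lower to 233 higher and 231 lower. At day 4 they were 3.2%, 1.62% higher and 1.58% lower in S23, beside 1.68% in wild type. At day 8 they were 2.42%, 0.7% higher and 1.72% lower in S23, beside 2.11% in wild type. The same scaling moved 234 higher and 228 lower to 169 and 204 at day 4, and 101 higher and 248 lower to 66 and 148 at day 8. Among the 8723 coding genes with a mean of at least 10 TPM, 111 differed 2-fold between S23 and S13 at day 4 and 26 between WT2 and WT1, whereas at day 0 the numbers were 124 and 136. At day 8, 51 did so between S23 and S13, of which 46 were lower in S23, and 31 in wild type.

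**Figure D1:**
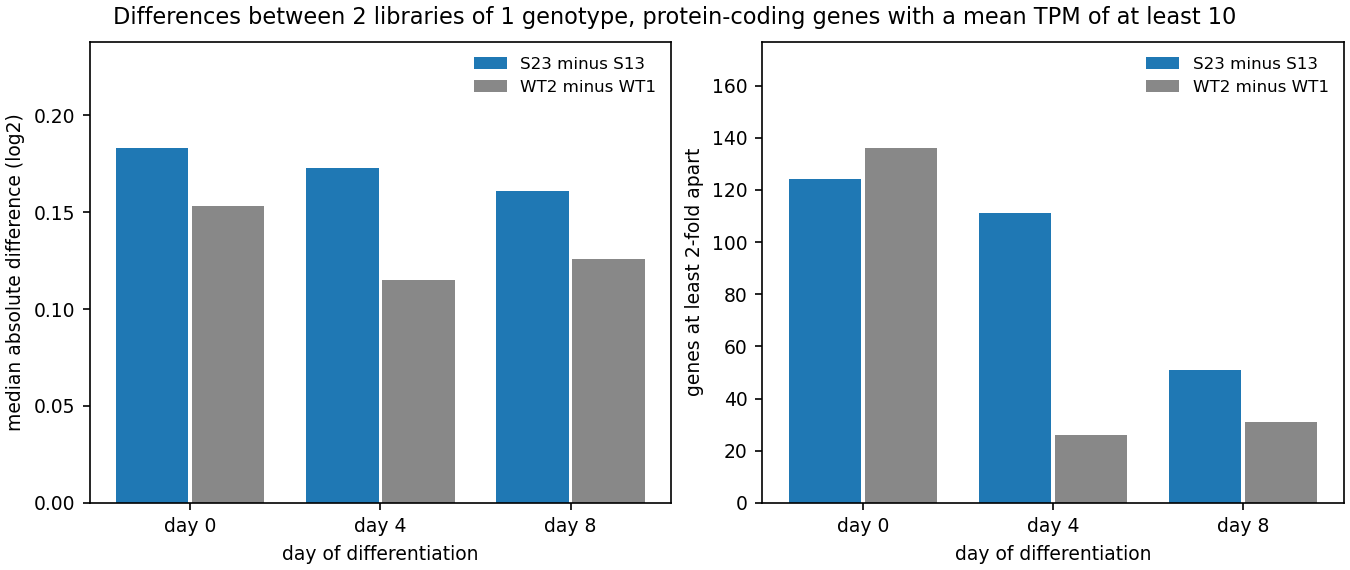
Left, the median absolute difference (log2) between the 2 libraries of a genotype at each day; right, the number of genes at least 2-fold apart, for the 8723 protein-coding genes with a mean TPM of at least 10. Bars are S23 minus S13 (blue) and WT2 minus WT1 (grey), each from 1 pair of libraries. The gap between the bars on the right is widest at day 4, with 111 genes against 26.

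Few genes passed a test. With day as the block, where the spread is that of a label difference over days, limma called 0 of 24248 genes between S23 and S13 (0%) and 0 between WT2 and WT1 (0%); 1513 and 821 had an unadjusted p under 0.05. Day by day, where 1 library stands on each side and the spread comes from WT1 against WT2, limma called 78 genes at day 0 (0.322%, 44 higher and 34 lower in S23), 0 at day 4 (0%) and 0 at day 8 (0%). For the change of the difference from day 4 to day 8 it called 0 (0%). Unadjusted p-values were under 0.05 for 2044 genes at day 0, 2568 at day 4, 2294 at day 8 and 1768 for the change. The counts of 0 are not firm: without any 1 of the 6 wild-type libraries, 149 to 235 genes passed at day 4, 203 to 357 at day 8 and 0 to 311 for the change. The smallest adjusted p was 0.0761 at day 4 and 0.0712 at day 8, so the values below are descriptions of 2 libraries beside a wild-type pair unless a call is named.

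At day 4 WNT8B was higher in S23 than in S13. It stood at 26.7 TPM in S13 and 94.3 TPM in S23, beside 2.78 TPM in WT1 and 3.19 TPM in WT2. Both labels were above wild type, by 2.80 for S13 and by 4.58 for S23 on the log2 scale, and the S23 minus S13 difference was 1.78 (SE 0.49, limma adjusted p = 0.383). At day 8 the labels had met: 322 TPM in S13 and 303 TPM in S23, beside 1.6 TPM in WT1 and 0.317 TPM in WT2, a difference of -0.09. Without the day 4 pair, the block estimate for WNT8B turned from 0.50 (SE 0.43, limma adjusted p = 0.818) to -0.15. At day 0 all 4 libraries were under 0.27 TPM.

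EMX2, a homeobox gene of the caudal and dorsal cortex, showed the same order. It was at 5.07 TPM in S13 and 20.5 TPM in S23 at day 4, beside 0.663 TPM and 0.466 TPM in wild type, with a difference of 1.82 (SE 0.20, limma adjusted p = 0.13). At day 8 it was at 47.7 TPM and 69.6 TPM, beside 10.5 TPM and 9.19 TPM, with a difference of 0.54 (limma adjusted p = 0.531). At both days all 4 values kept the order S23, S13, wild type. OTX1, a homeobox gene of forebrain and midbrain, was at 35.1 TPM in S13 and 82.1 TPM in S23 at day 4, beside 11.3 TPM and 9.41 TPM, a difference of 1.2 (SE 0.25, limma adjusted p = 0.32). By day 8 its values of 91.7 TPM and 103 TPM differed by 0.16, while wild type was at 13.3 TPM and 10.03 TPM. SOX21 was the gene of the 4 whose labels parted at day 8 instead, with a difference of -0.18 at day 4 and of -1.84 at day 8 (SE 0.20, limma adjusted p = 0.129). For the change from day 4 to day 8 the 4 genes gave -1.87 for WNT8B, -1.29 for EMX2, -1.04 for OTX1 and -1.66 for SOX21, with limma adjusted p = 0.684, 0.476, 0.654 and 0.338. With day as the block, the adjusted p of EMX2, OTX1 and SOX21 was 0.782, 0.788 and 0.793.

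**Figure D2:**
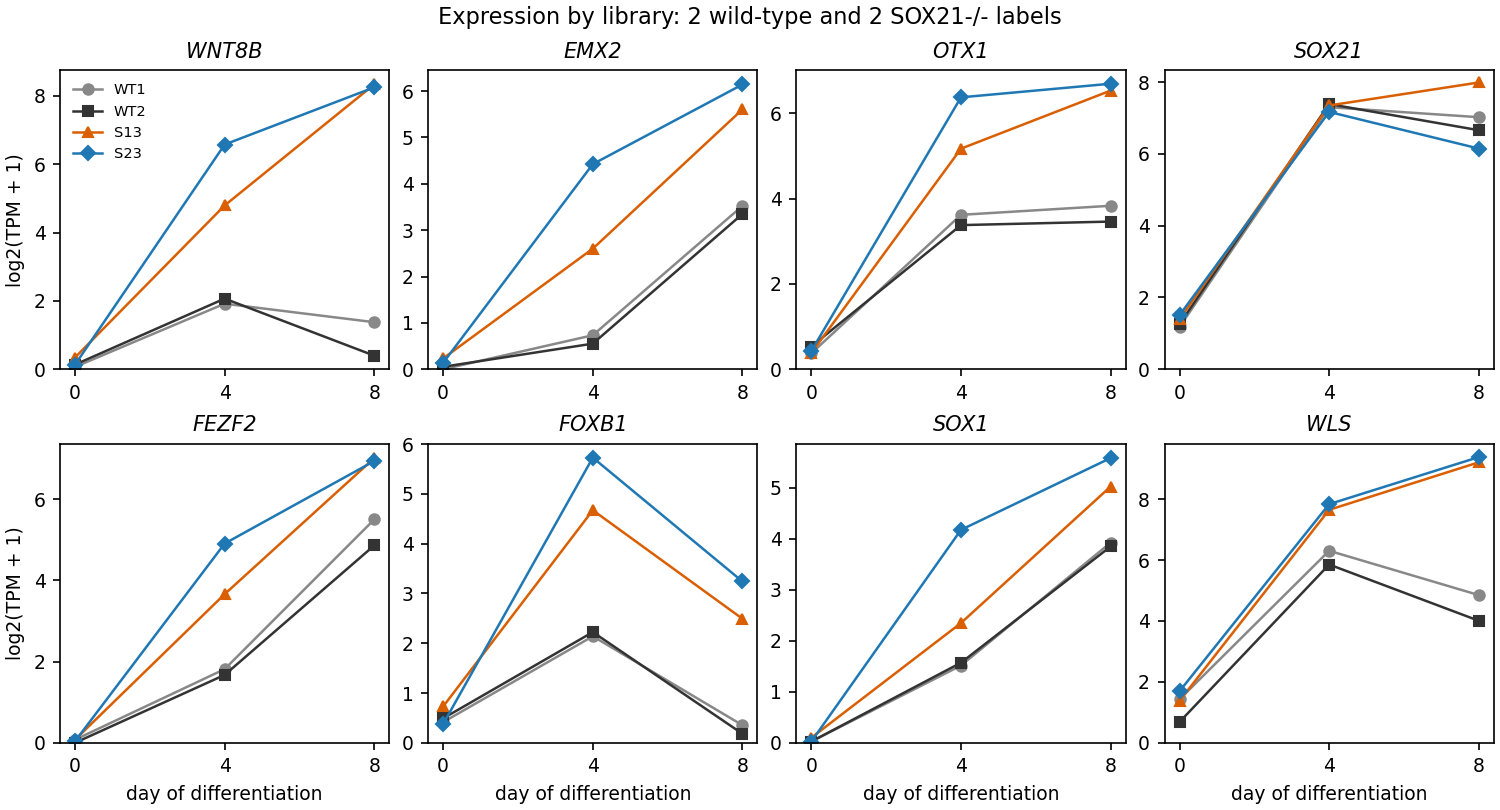
Expression as log2(TPM + 1) against day of differentiation, 1 line per label and 1 library per point. At day 4 S23 lies above S13 for WNT8B, EMX2, OTX1, FEZF2, FOXB1 and SOX1, and for WNT8B, OTX1, FEZF2 and WLS the labels nearly meet at day 8; SOX21 parts at day 8.

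For genes that respond to genotype, the labels were 0.44 apart at day 8 and 0.52 at day 4 by the median absolute difference, beside 0.23 and 0.19 between the wild-type labels. The values come from a list of 36 genes that differed between SOX21-/- and wild type in these same libraries, so neither its direction nor the size of its genotype difference is evidence of its own. S13 and S23 both entered that choice, which may also shape how far apart they stand in this list. Their differences in it, and the numbers higher or lower in S23, are thus descriptions only. At day 8 S13 and S23 were both above, or both below, WT1 and WT2 for 36 of 36 genes, as the choice of the list favours. The median absolute difference of the genotypes was 2.80 there and 1.31 at day 4, sizes that the choice of the genes fixes. The number of genes with labels overlapping wild type was 6 of 36 at day 4 and 25 of 36 at day 0.

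Of these 36 genes, 26 were higher and 10 lower in S23 at day 4, with a median of 0.39, beside 0.01 for all coding genes. The 5 that reached 2-fold were WNT8B, EMX2, OTX1, FEZF2 and FOXB1. FEZF2, a forebrain zinc finger gene, was at 11.6 TPM in S13 and 29 TPM in S23, beside 2.52 TPM and 2.19 TPM in wild type. FOXB1, a forkhead gene of diencephalon and midbrain, was at 24.5 TPM and 52 TPM, beside 3.41 TPM and 3.67 TPM. Not every gene of the response followed. WLS, the carrier that WNT proteins need for secretion, was at 199.6 TPM in S13 and 227 TPM in S23, a difference of 0.19, and SIX3, a gene of the rostral forebrain and eye field, at 31.5 TPM and 26.5 TPM.

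At day 8 the balance was the other way, with 12 of the 36 higher and 24 lower in S23 and a median of -0.21, beside -0.07 for all coding genes. The 4 that reached 2-fold were all lower in S23. DLK1, an imprinted inhibitor of NOTCH signalling, was at 339 TPM in S13 and 114 TPM in S23, beside 3194 TPM in WT1 and 2908 TPM in WT2, so S23 lay further from wild type. ZIC1, a zinc finger gene of dorsal neural tissue, was at 6.83 TPM and 0.829 TPM, beside 23 TPM and 46.4 TPM. BARHL1, a homeobox gene of the caudal diencephalon, was at 11.9 TPM and 4.36 TPM where wild type was at 0.136 TPM and listed at 0. ENPP2 completed the 4, at 20.6 TPM and 7.47 TPM.

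Of the WNT, BMP, NOTCH and FGF lists, the FGF list had the most members at 2-fold at day 4. Of 20 tested members of the list, 14 were lower in S23, 8 of them 2-fold, and 0 were 2-fold higher, with a median of -0.50 beside 0.19 between the wild-type labels. With another pseudocount, other filters or another scaling that median ran from -0.89 to -0.11. FGF8, the ligand, was at 33.1 TPM in S13 and 8.06 TPM in S23, beside 42.2 TPM and 40.9 TPM in wild type, a difference of -1.91 (SE 0.17, limma adjusted p = 0.0907). S13 was close to wild type and S23 was below all 3 other libraries. The feedback genes that FGF signalling through ERK turns on stood in the same order. DUSP6, the ERK phosphatase, was at 20.5 TPM in S13 and 2.23 TPM in S23, beside 32.4 TPM and 39.9 TPM, a difference of -2.73 (SE 0.30, limma adjusted p = 0.13). SPRY4, a sprouty inhibitor, was at 19.7 TPM and 3.35 TPM, beside 13.3 TPM and 22.7 TPM, and ETV4, an ETS factor, at 19 TPM and 3.33 TPM, beside 11.8 TPM and 14.3 TPM. For both genes S13 lay within or above the wild-type pair. At day 8 the list was nearly even, with 12 of 20 lower and a median of -0.15, though DUSP6 was still at 14.1 TPM in S13 and 5.85 TPM in S23. The immediate early genes were lower in S23 for 14 of 17 both at day 4, with 3 of them 2-fold, and at day 0, with 1 of them 2-fold. At day 4 their median absolute difference was 0.38, beside 0.30 between the wild-type labels. Some lists of other kinds leaned the same way at day 4. Lower in S23 were 18 of 21 genes of unfolded protein and amino acid stress and 18 of 22 of glycolysis and hypoxia, while 21 of 22 cholesterol synthesis genes were higher.

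Genes of the midbrain and hindbrain, some of which lie next to FGF8 in the embryo, were few: 7 were tested, of which 4 were 2-fold lower and 1 was 2-fold higher in S23 at day 4, and FGF8 is 1 of them. PAX8, a paired box gene, was at 8.55 TPM in S13 and 0.205 TPM in S23, beside 3.66 TPM and 2.86 TPM, a difference of -2.99 (SE 0.23, limma adjusted p = 0.0883). GBX2, of the anterior hindbrain, was at 2.00 TPM and 0.143 TPM, beside 2.17 TPM and 2.46 TPM. LMX1A, of the roof plate and midbrain floor plate, was the 2-fold higher gene, at 6.54 TPM in S13 and 20.4 TPM in S23. Wild type was at 2.71 TPM and 2.03 TPM, and the order of the labels for LMX1A turned at day 8, to 6.13 TPM and 2.28 TPM. OTX2, also in this list, was higher in S23 at day 4 as well, by 0.99, so 5 of the 7 were lower. The median of the list at day 4 was -1.0, and from -1.14 to -0.01 with the other pseudocount, filters or scalings.

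WNT signalling genes leaned to S23 at day 4 by small medians, while a few members differed widely. Of 22 tested targets and inhibitors 13 were higher in S23, with 2 at 2-fold and a median of 0.17. Without regard to sign, their median difference was 0.40, beside 0.12 between the wild-type labels. For all coding genes these values were 0.202 and 0.139. DKK1, a secreted WNT antagonist and itself a WNT target, was at 1.22 TPM in S13 and 24.4 TPM in S23, beside 0.0581 TPM and 0.12 TPM in wild type, a difference of 3.52 (SE 0.19, limma adjusted p = 0.0761). It was under 0.4 TPM in all 4 libraries at days 0 and 8. SP5, a zinc finger target of WNT, was at 9.31 TPM and 28 TPM, beside 0.0766 TPM and 0.176 TPM, a difference of 1.49 (SE 1.08, limma adjusted p = 0.712), and at day 8 at 2.84 TPM in S13 and 0.157 TPM in S23. Both are the genes whose promoters are printed above, with TCF/LEF cores. AXIN2, a general WNT target, was at 23.8 TPM and 35.3 TPM at day 4, a difference of 0.55. Of 24 tested ligands, carriers and receptors, 16 were higher in S23 with a median of 0.13, and the median absolute difference was 0.19, beside 0.15 in wild type. WNT8B and WNT5B were 2-fold higher, WNT5B with 38.7 TPM in S13 and 96.9 TPM in S23, beside 43.7 TPM and 57.1 TPM. RSPO2, a secreted amplifier of WNT signals, was higher in S23 at both later days, with 19 TPM and 54.2 TPM at day 4 and 5.58 TPM and 20.4 TPM at day 8, while wild type was under 4.3 TPM throughout.

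Neural progenitor genes were also uneven at day 4. SOX1, a marker of committed neural progenitors, was at 4.09 TPM in S13 and 17.1 TPM in S23, beside 1.86 TPM and 1.97 TPM, a difference of 1.83 (SE 0.16, limma adjusted p = 0.0907). FABP7, a fatty acid binding protein of radial glia, stood the other way at 98.5 TPM and 26.5 TPM, beside 52.8 TPM and 48.3 TPM, a difference of -1.85 (SE 0.16, limma adjusted p = 0.0907), and was close at day 8, at 406 TPM and 409 TPM. OTX2, a head gene, was at 255 TPM and 508 TPM, beside 214 TPM and 218 TPM. Across the list 14 of 23 were higher and 9 lower in S23, with a median of 0.29 beside 0.12 in wild type, and 10 of the 23 had an unadjusted p under 0.05, as had 10.2% of all coding genes at that day. The pluripotency list had 0 of 21 members at 2-fold, with POU5F1 at 24.2 TPM in S13 and 30.7 TPM in S23.

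Cholesterol synthesis differed with the most even sign at day 4. There, 21 of 22 genes were higher in S23, 5 of them 2-fold, with a median of 0.75 beside 0.09 in wild type, and 15 of the 22 had an unadjusted p under 0.05, as had 10.2% of all coding genes at day 4. Here S13 was the label away from wild type: the median against the wild-type mean was -1.0 for S13 and -0.24 for S23. DHCR7, of the last step, was at 26.6 TPM in S13 and 55.8 TPM in S23, beside 73.9 TPM and 79 TPM, a difference of 1.04 (SE 0.09, limma adjusted p = 0.0907). STARD4, a sterol carrier, was at 14 TPM and 30.2 TPM, beside 34.8 TPM and 36.7 TPM, and HMGCS1, of an early step, at 104 TPM and 209 TPM, beside 257 TPM and 271 TPM. At day 0 the sign was the other way, with 18 of 22 lower in S23, 7 of 22 at an unadjusted p under 0.05 (9.41% of all coding genes) and a median of -0.23 beside -0.06 for all coding genes. At day 8 the median was -0.04.

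BMP signalling and dorsal midline genes set the labels apart at day 8. Of 24 tested, 20 were lower in S23, 10 of them 2-fold, and 1 was 2-fold higher, with a median of -0.83 beside -0.06 in wild type and -0.07 for all coding genes, and from -1.28 to -0.63 under the other settings. Against the wild-type mean the median was 1.14 for S13 and 0.23 for S23. ID1 and ID3, direct BMP targets that block differentiation factors, had the largest differences of the list. ID1 was at 57.2 TPM in S13 and 5.11 TPM in S23, beside 8.30 TPM and 6.72 TPM, a difference of -3.25 (SE 0.43, limma adjusted p = 0.172). ID3 was at 72.8 TPM and 8.34 TPM, beside 16.7 TPM and 15.1 TPM, a difference of -2.98 (SE 0.19, limma adjusted p = 0.0996). S13 was thus several-fold above wild type for both and S23 below it. ID2 kept the order of the labels but not that to wild type, with 112 TPM and 40.5 TPM beside 145 TPM and 171 TPM. Of the ligands, BMP4 was at 7.67 TPM in S13 and 2.17 TPM in S23, beside 1.25 TPM and 3.02 TPM, and BMP7 at 39.9 TPM and 17.7 TPM, beside 17.1 TPM and 16.8 TPM. At day 4 the list had a median of -0.13, with 13 of 24 lower, and ID1 was at 5.35 TPM and 2.25 TPM.

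Young neuron genes and some neural crest genes were lower in S23 beside the BMP list at day 8. Of 16 young neuron genes, 14 were lower in S23, 5 of them 2-fold, with a median of -0.90 beside 0.04 in wild type, and from -1.14 to -0.45 under the other settings. The sign alone was not particular to these lists. Lower in S23 at day 8 were also 21 of 24 cell cycle genes and 20 of 23 p53 targets, with 0 at 2-fold and medians of -0.17 and -0.26. The NOTCH list was even in sign, with 10 of 20 lower, but 2 members, DLL3 and MFNG, were 2-fold lower in S23 and 0 were 2-fold higher. Of all coding genes 1.72% were 2-fold lower. NHLH1, a helix-loop-helix factor of newborn neurons, was at 7.95 TPM in S13 and 1.18 TPM in S23, beside 0.489 TPM and 0.747 TPM, a difference of -2.04 (SE 0.21, limma adjusted p = 0.129). ELAVL3, a neuronal RNA-binding protein, was at 9.16 TPM and 2.69 TPM, beside 1.5 TPM and 1.4 TPM, and NEUROG2, a proneural factor, at 4.65 TPM and 1.44 TPM, beside 0.369 TPM and a listed 0. S13 was the highest of the 4 libraries for these genes, although the summed level of the whole list was 229 TPM in S13 and 164 TPM in S23, beside 291 TPM and 306 TPM. Of 11 tested neural crest genes, 3 were 2-fold lower in S23, namely PAX3, TFAP2A and SNAI2, and the summed level was 236 TPM in S13 and 309 TPM in S23, beside 291 TPM and 286 TPM. FOXD3, a defining neural crest factor, was at 0.0657 TPM in S13 and listed at 0 in the other 3. PAX3, of dorsal neural tube and neural crest, was at 11.9 TPM and 1.75 TPM at day 8, beside 4.49 TPM and 1.83 TPM, and at 10.9 TPM and 0.654 TPM at day 4, beside 1.38 TPM and 2.09 TPM. In bulk samples, fewer cells of a type and less RNA per cell cannot be told apart. The part of such cells in the BMP difference was not tested.

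**Figure D3:**
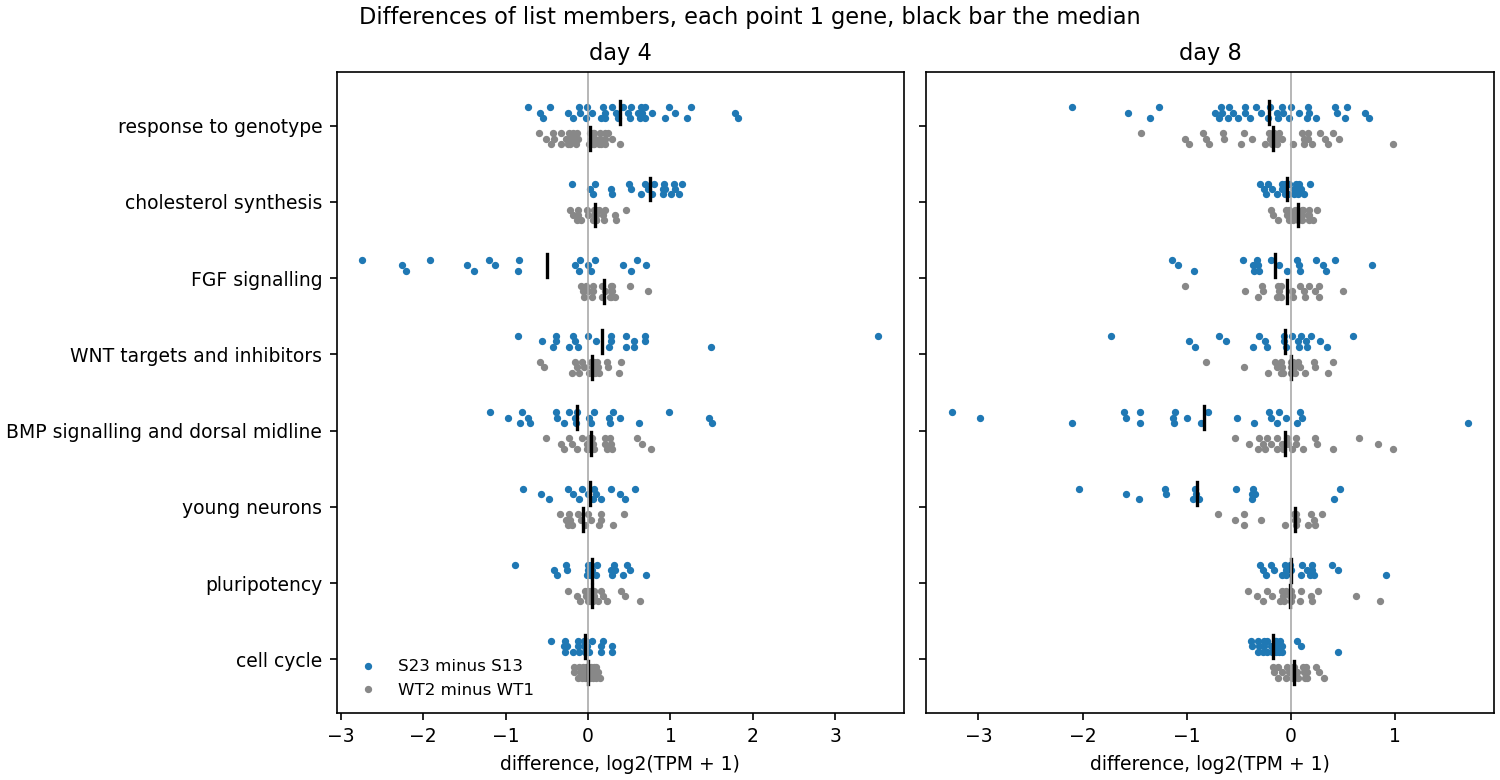
Differences on log2(TPM + 1) of the members of 8 gene lists at day 4 (left) and day 8 (right), 1 point per gene, S23 minus S13 in blue and WT2 minus WT1 in grey, with the median as a black bar. At day 4 the cholesterol genes lie to the right and 8 FGF genes beyond -1, and at day 8 the BMP and young neuron genes lie to the left; the grey medians stay between -0.17 and 0.19.

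**Figure D4:**
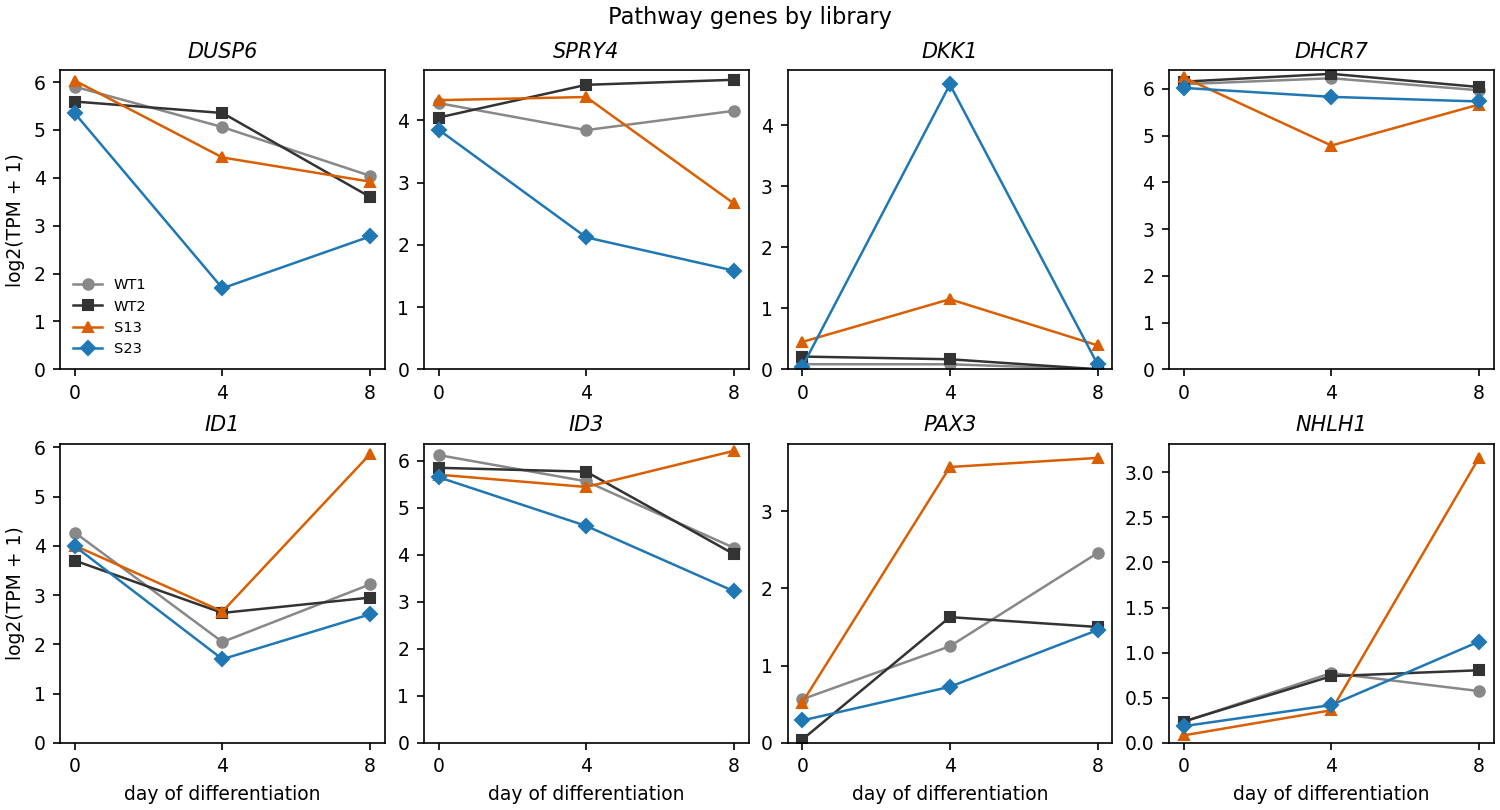
Expression as log2(TPM + 1) against day for 8 genes of these lists, 1 line per label. S23 stands apart from the other 3 labels for DUSP6, SPRY4 and DKK1 at day 4, and S13 stands apart for DHCR7 and PAX3 at day 4 and for ID1, ID3, PAX3 and NHLH1 at day 8.

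The differences of days 4 and 8 were set against each other gene by gene. Across the 8723 genes with a mean of at least 10 TPM, S23 minus S13 at day 4 and at day 8 had a Pearson correlation of 0.308, while WT2 minus WT1 had 0.015. The value depended on the genes taken: over all 14437 coding genes it was 0.219, beside -0.0149 in wild type, and over all 24248 genes tested it was 0.0712, beside 0.00014. Against day 0 the correlations of S23 minus S13 were -0.050 for day 4 and -0.058 for day 8. These are across genes, which are not replicates, and no 2 days share a library. Of 462 coding genes 2-fold apart at day 4, 64.7% had the same sign at day 8, beside 58.0% of all coding genes, and 48 (10.4%) were 2-fold the same way, 12 higher and 36 lower in S23. In wild type 18 of 243 (7.41%) were, and the difference of these shares was not tested. PAX3, DUSP6, SPRY4 and BMP7 were among the lower and RSPO2 among the higher. The next 3 genes were picked from the 48 after their values were seen. HIST1H2AC, 1 of 4 histone genes there, all lower, was at 10.1 TPM in S13 and 1.59 TPM in S23 at day 4 and at 11.8 TPM and 1.0 TPM at day 8, while wild type was under 2.2 TPM. Histone mRNAs without a poly(A) tail, and the near-identical copies of these genes, make such values uncertain in poly(A) libraries. SALL3, a zinc finger gene, was at 77.5 TPM and 165 TPM at day 4 and at 49.2 TPM and 135 TPM at day 8, and GADD45G, a growth arrest gene, at 13 TPM and 1.91 TPM at day 8.

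**Figure D5:**
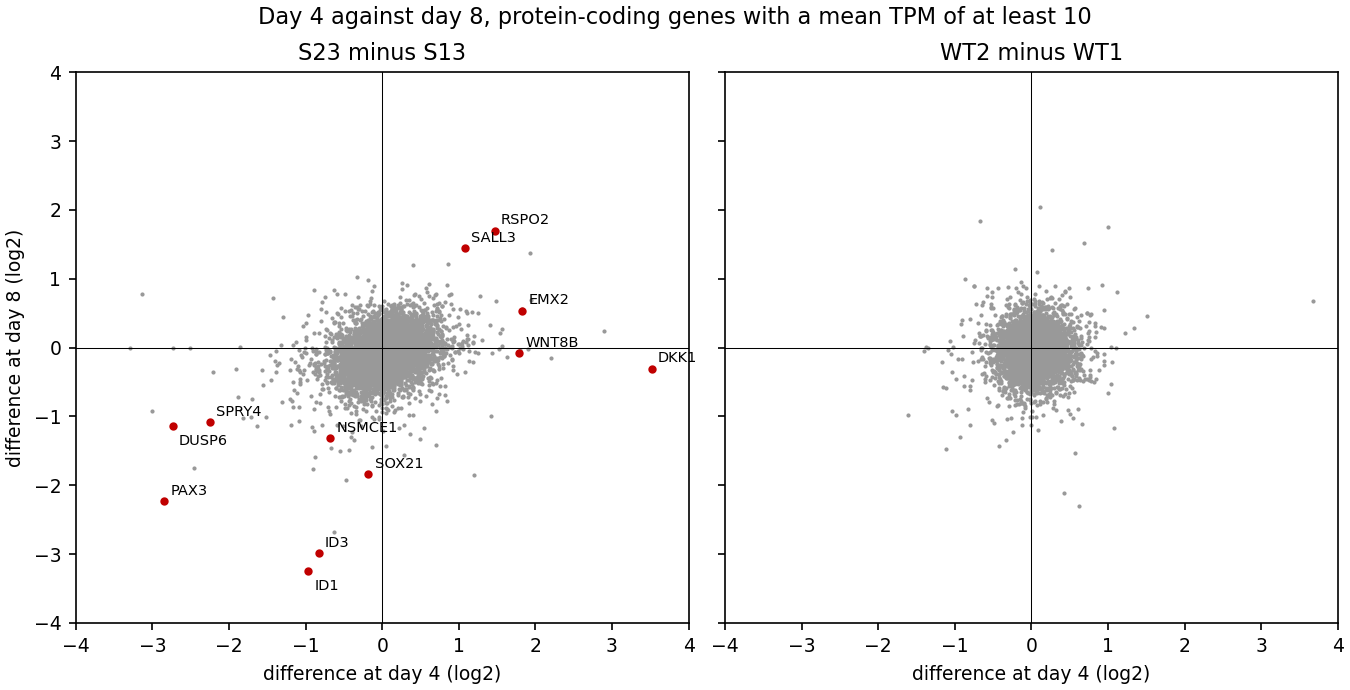
The difference at day 8 (log2) against that at day 4, 1 point per protein-coding gene with a mean TPM of at least 10 (8723 genes), for S23 minus S13 (left) and WT2 minus WT1 (right). The left cloud leans along the diagonal (r = 0.308) and the right does not (r = 0.015); genes named in the text are in red.

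Genes were named for the block test only if their difference had the same sign at all 3 days, so that trait is no finding. ALG14 and RNF213 are examples. ALG14, an enzyme of protein glycosylation, was at 8.39 TPM in S13 and 0.993 TPM in S23 at day 0, at 16.5 TPM and 0.725 TPM at day 4 and at 6.64 TPM and 0.752 TPM at day 8. Wild type ran from 0.745 to 2.59 TPM, so S13 was the high label at every day. The block difference was -2.57 (SE 0.37, limma adjusted p = 0.782). RNF213, a large ubiquitin ligase, was higher in S23 at each day by 0.72, 0.67 and 0.40, and also in WT2 against WT1, by 0.38, 0.16 and 0.46, with a block difference of 0.60 (SE 0.10, limma adjusted p = 0.782). By chromosome, the median difference of coding genes, taken relative to the median of all coding genes at that day, lay between -0.053 and 0.073 over 23 chromosomes and 3 days. Between the wild-type labels the same medians lay between -0.037 and 0.051, so some of those between S23 and S13 were outside the wild-type range, the widest being 0.073 on chromosome 21 at day 8. Chromosome 21 had the fewest genes, 141, and its median was -0.006 at day 0 and -0.011 at day 4.

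The 78 genes called at day 0 were mostly short RNAs and pseudogenes: 71 were not protein-coding and 61 were listed at 0 in S13 or S23, where a 0 can be a failed estimate. Examples are MIR367, of the pluripotency microRNA cluster, listed at 0 in S13 and at 212 TPM in S23, beside 118 TPM and 71.4 TPM in wild type, and SNORD35B, a small nucleolar RNA, listed at 0 in S13 and at 41.1 TPM in S23. RNAs this short are as a rule not held well by poly(A) libraries. The remaining 7 were protein-coding and were looked at after their calls were seen. BARD1, the partner of BRCA1, was lower in S23, with 68.3 TPM in S13 and 20.1 TPM in S23, beside 61.1 TPM in each wild-type library (limma adjusted p = 0.0213). TENM4, a teneurin, was also lower, with 25.7 TPM and 2.50 TPM, beside 1.26 TPM and 0.947 TPM (limma adjusted p = 0.031), so here S13 stood away from wild type. LARP7, a regulator of transcription elongation, was higher in S23, with 114 TPM in S13 and 363 TPM in S23, beside 389 TPM and 394 TPM (limma adjusted p = 0.0247), and at day 4 the labels were close, at 179 TPM and 181 TPM. The other called coding genes were ANKMY2, ARFRP1 and VPS13B, higher in S23, and TTLL7, lower.

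Few list members differed at day 0. None of the 4 response genes differed by more than 0.21, and 0 of 21 pluripotency genes reached 2-fold. Glycolysis and hypoxia genes had a median of 0.23 between S23 and S13 and of 0.53 between the wild-type labels, with 7 of 22 at 2-fold in wild type and 0 between S23 and S13. PGK1, a glycolytic enzyme, was at 698 TPM in S13 and 996 TPM in S23, and at 352 TPM in WT1 and 872 TPM in WT2. PCDHB3, a clustered protocadherin, was at 8.68 TPM in S13 and 28.5 TPM in S23 and, in wild type, at 4.78 TPM in WT1 and 28.6 TPM in WT2. Across the 8723 genes the correlation of S23 minus S13 with WT2 minus WT1 was 0.102 at day 0, 0.108 at day 4 and -0.103 at day 8.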

How the data were processed

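Poly(A) RNA of 12 H9 libraries was analysed, grouped by their labels S13, S23, WT1 and WT2 and by day. The authors deposited TPM for each gene. The submitters' processing notes name Salmon 0.8.2, CASAVA 1.7 and hg38. The release of the annotation, and whether strand was used, are not given in the sources used here. A gene entered the tests with a TPM of 1 or more in 2 or more libraries, which left 24248 of 58219. limma 3.58.1 (R 4.3.3) was run on log2(TPM + 1), with the trend option, both sides tested, and p-values adjusted by Benjamini and Hochberg over every gene tested, with 0.05 as the threshold. The block fit had a mean per genotype and day plus a term for S23 minus S13 and a term for WT2 minus WT1, with 4 residual and 2.34 prior degrees of freedom. The day fit had a mean for each S13 and S23 library and for wild type at each day, with 3 residual and 1.41 prior degrees of freedom, all from WT1 against WT2. TPM adds up to a fixed total, so depth and its precision are unknown.

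The libraries and the 28 gene lists were chosen with earlier results of these data known. Named were the 4 response genes and SOX21-AS1, up to 10 called genes each way per comparison or, failing that, 5 with the smallest p, and up to 4 members per list with the largest difference; genes named outside this rule are stated as picked after their values were seen or are further list members at 2-fold. For the comparisons, the rule took only genes at 5 TPM or more in the higher label. For the block test it also asked for the same sign at all 3 days. A few genes named by the rule are left out of this report. No gene list was tested as a set. Locations came from GENCODE 29, matched to 57881 identifiers without version, and promoters from RefSeq on GRCh38.p14. The fits were tested on simulated data with the spread of wild type. Of genes changed by 1 on the log2 scale, the block fit recovered 42% and the day fits 2% to 4%. Of genes changed by 4, the day fits recovered 54% to 62%. A count of 0 in the day tests thus does not mean that no gene differed. Alternatives were a pseudocount of 0.1, no filter or a filter at 5 TPM, median-of-ratios scaling, nuclear protein-coding genes only, no trend, fits on 1 genotype, and libraries left out in turn; days 4 and 8 only, and sizes over coding genes with a mean of at least 10 TPM, were added after seeing the data.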

Additional observations from a re-analysis of the deposited data

How the results depend on the processing

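Day was the block of the tests over days, and with 1 library per label and day no further pairing was run. The day tests were sensitive. At day 0, 78 calls became 122 with a pseudocount of 0.1 (66 higher, 56 lower), 1401 with no filter, 11 with a filter at 5 TPM (10 higher, 1 lower), 119 with median-of-ratios scaling and 7 with nuclear protein-coding genes only; leaving out each wild-type library in turn gave 72 to 507, with the highest counts without WT1 (503) or WT2 (507) at day 0. At day 4, 0 became 1214 with no filter, 102 without the trend and 1 with nuclear protein-coding genes only. At day 8, 0 became 2 with a pseudocount of 0.1, 1786 with no filter, 112 without the trend and 1, ID3 (-2.98, limma adjusted p = 0.0293), with nuclear protein-coding genes only. For the change between these days, 0 became 25, 2372 and 64 with the pseudocount, no filter and no trend. Leaving out a wild-type library gave 149 to 235 at day 4, 203 to 357 at day 8 and 0 to 311 for the change. The cause was not tested. The block tests gave 0 under every alternative run, days 4 and 8 only included. The size ratio at day 4, 1.318, was 1.152 with no filter, 1.475 with a filter at 5 TPM, 1.435 for nuclear protein-coding genes and 1.508 for those with a mean of at least 10 TPM; at days 0 and 8 it moved by less than 0.114, the SD over days.

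Of 1329 values of single genes under the alternatives, 1266 kept direction and side of the threshold, 60 passed it newly and 3 turned: the block estimates of WNT8B between S23 and S13 without day 4 (-0.15, and 0.85 without day 0), and, between the wild-type labels without day 8, of WNT8B (0.11, and -0.46 without day 4) and SOX21 (0.08, and -0.14 without day 0). Unknown depth, 1 library per label and day, and a spread taken from wild type limit all of these tests.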
